A study of Danio rerio with 8 samples.

Results

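A set of 7 receptor and junction genes of blood and lymph vessels was followed across all 8 libraries of a zebrafish RNA sequencing series. The 7 genes, of 35117 in the count files, were taken by their Ensembl identifiers: kdrl (ENSDARG00000105215), kdr (ENSDARG00000017321), flt1 (ENSDARG00000019371), flt4 (ENSDARG00000104453), tie1 (ENSDARG00000004105), tek (ENSDARG00000028663) and cdh5 (ENSDARG00000075549). They were chosen for their known roles in endothelium and not by a rule on their values, but with earlier results of these data known. All 7 had reads in every library and all 7 passed the filter on low counts in every comparison.

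Vascular endothelial growth factors (VEGF) are secreted ligands that bind receptor tyrosine kinases on endothelial cells, the cells that line vessels. The zebrafish genes kdrl and kdr both encode VEGFR2-type receptors, flt1 encodes VEGFR1, which binds VEGF tightly and also exists as a soluble decoy, and flt4 encodes VEGFR3, the receptor for VEGFC that is needed for lymphatic and early vessel growth. The TIE family consists of tek (TIE2), the receptor for angiopoietins, and tie1, a related receptor that modulates TIE2 signalling, while cdh5 encodes VE-cadherin, the adhesion molecule of endothelial junctions.

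The study set up a workflow for RNA from small numbers of sorted cells with 2 isolation kits, the RNAqueous micro kit (A) and the RNeasy plus micro kit (Q), and used sequencing to examine how reproducible it is. Sorted samples held 20000 EGFP positive cells from Tg(fli1a:EGFP) zebrafish, in which regulatory sequence of fli1a drives a green fluorescent protein, and the sample records give their age as 3 days. A_1 and Q_1 were sequenced in run 1. In run 2, 1 RNA of each kit was divided into portions a and b that each became a library (A_2a, A_2b, Q_2a and Q_2b), and these portions were summed for every test. A_unsorted and Q_unsorted, sequenced with run 2, each came from 1 whole embryo of the same line with an age of 5 days, so that sorting, age and dissociation cannot be told apart. Sorted cells came from a common pool of fish, and the whole embryos were single animals. No mutation or drug treatment was part of the design. The reporter is a limit of the model, since fli1a is active in neural crest derived cartilage and mesenchyme as well as in endothelium. Amplification also differed, with more cycles for the sorted cells of run 2 than for run 1 or the embryos. The p-values rest on the spread between these few RNA samples, which may be technical, since the sorted cells shared a pool. Against embryos, each group held 1 sample of each kit and no kit term was fitted. That spread, like the SDs given below, therefore includes any kit difference. In the fit for runs and kits, that spread was taken wholly from the trend over all genes, and not from the gene itself.

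Between 10763174 and 19537939 reads were counted on genes per library, so 3 counts corresponded to 0.154 to 0.279 CPM, the read count of a gene scaled to a common library total. A member's own count was never below 38 and reached 1035. The 15 endothelial marker genes, 5 of which are also in the list of junction genes below, summed to between 889.8 and 963.7 CPM in the 6 sorted libraries and to 242 and 197 CPM in the embryos, with none of them at 0 in any library. The sum includes FLI1, matched for fli1a, whose regulatory sequence drives the reporter used for sorting, so its rise is not independent of the sort. FLI1 was at 268 to 398 CPM in the sorted libraries and at 30.7 and 24.8 CPM in A_unsorted and Q_unsorted. Of these markers 11, FLI1 among them, were higher in run 2 sorted cells than in embryos by the test below, 3 did not pass, and 1 was lower, TAL1, a blood and endothelial transcription factor named here after its value was seen (log2 fold change -0.98). Markers of other cell types also differed between sorted cells and embryos. All 8 cartilage markers were higher, with sums of 16974 to 55771 CPM in sorted libraries against 3026 and 4268 CPM in embryos. Higher calls were also made for 3 of 4 lymphatic markers (143 to 184 against 79.0 and 108 CPM) and 4 of 6 tested leukocyte markers (126 to 253 against 62.01 and 63.57 CPM, with 1 lower). All 8 neuron markers (294 to 497 against 1304 and 2065 CPM), all 4 epidermis markers (902 to 2872 against 9709 and 11884 CPM) and 5 of 6 muscle markers (7428 to 13735 against 60374 and 65820 CPM) were lower. Calls were mixed for 5 mural markers (237 to 281 against 406 and 463 CPM, 2 higher and 2 lower) and 5 erythroid markers (1065 to 5514 against 1323 and 1463 CPM, 2 higher and 1 lower). None of the markers of cartilage, muscle, neuron, epidermis or mural cells was at 0 in a library, nor was any lymphatic marker. Among the leukocyte markers up to 1 gene per library was at 0, and among the erythroid markers 1 gene was at 0 in Q_1. That gene, SLC4A1 (ENSDARG00000024560), was also the lower erythroid call. Most of each erythroid sum was hbae3 (5470 of 5514 CPM in A_1). The markers etv2, mpx, hbbe1.1, hbbe2 and mylpfa were sought and not found. Some names matched more than 1 gene by a shared symbol, as with SLC4A1, MPEG1, COL2A1 and SOX9, so the marker counts include paralogs. The part of these cell types in the results for the 7 genes was not tested. In bulk RNA, fewer cells of a type and less RNA per cell cannot be told apart.

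In all 7 genes every sorted RNA sample had a higher CPM than both whole embryos. Over all genes with an average level of 1 CPM or more, 18574 in number, the same held for 23.2%. Levels are compared below within a gene only, because transcript lengths were not used here.

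Among the VEGF receptors, kdrl was measured at 32.2 CPM in A_1 and 46.5 CPM in Q_1, at 59.1 and 48.3 CPM in A_2a and A_2b, at 29.0 and 31.1 CPM in Q_2a and Q_2b, and at 18.2 and 12.2 CPM in A_unsorted and Q_unsorted. The sorted libraries did not overlap with the embryos, and the RNAqueous sample of run 2 was the highest. The mean of the run 2 RNA samples was 42.4 ± 17.4 CPM (SD, n = 2), that of run 1 was 39.3 ± 10.1 CPM (SD, n = 2) and that of the embryos was 15.2 ± 4.20 CPM (SD, n = 2).

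The second VEGFR2-type gene, kdr, was at 3.997 and 4.088 CPM in A_1 and Q_1, at 16.5, 21.8, 11.6 and 13.9 CPM in A_2a, A_2b, Q_2a and Q_2b, and at 3.30 and 1.94 CPM in the RNAqueous and RNeasy embryos. Run 2 stood above run 1 and the embryos without overlap, and A_1 was close to A_unsorted. Counting intervals (95%, Poisson, counting error only) ran from 3.04 to 5.16 CPM in A_1 and from 2.48 to 4.29 CPM in A_unsorted. They overlapped when scaled by total counts, as CPM is. The TMM scaling of the tests below set the library size to 0.797 times the total in A_1 and 1.16 times in A_unsorted. On that scale every gene is higher in A_1 and lower in A_unsorted than by CPM. The intervals of the RNeasy pair, 2.97 to 5.49 CPM in Q_1 and 1.38 to 2.67 CPM in Q_unsorted, did not overlap.

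For flt1, A_1 had 13.2 CPM and Q_1 23.0 CPM, the run 2 libraries had 30.0, 26.5, 22.4 and 22.8 CPM in the order A_2a, A_2b, Q_2a and Q_2b, and the embryos had 6.78 and 6.30 CPM. The run 2 values ranged around Q_1, while A_1 was the lowest sorted library. The embryos were close to one another, at 6.54 ± 0.341 CPM (SD, n = 2).

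The lymphatic and venous receptor gene flt4 was at 19.4 CPM in A_1 and 31.1 CPM in Q_1, at 38.2 and 37.0 CPM in A_2a and A_2b, at 44.9 and 48.2 CPM in Q_2a and Q_2b, and at 6.12 and 5.89 CPM in the embryos. Here the run 2 RNeasy libraries were the highest, unlike in kdrl, kdr, flt1, tie1 and tek, where a run 2 RNAqueous library was. The mean over run 2 was 7.03 times the mean over the embryos, the highest ratio among the 7 genes.

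In the TIE family, tie1 was at 9.82 and 12.4 CPM in A_1 and Q_1, at 59.3 and 59.6 CPM in A_2a and A_2b, at 23.6 and 28.2 CPM in Q_2a and Q_2b, and at 9.36 and 6.14 CPM in the embryos. By CPM, A_1 was barely above A_unsorted, and their intervals of 8.29 to 11.6 CPM and 7.95 to 10.94 CPM overlapped. As for kdr, TMM scaling moves these libraries apart. The intervals of Q_1, 10.3 to 14.6 CPM, and of Q_unsorted, 5.09 to 7.34 CPM, did not. The portions of A_2 were within 1% of one another, whereas Q_2 had 0.438 times the CPM of A_2 (mean of both 42.7 ± 23.6 CPM, SD, n = 2).

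The angiopoietin receptor gene tek was at 9.01 CPM in A_1 and 21.6 CPM in Q_1, at 31.9, 39.0, 28.6 and 23.8 CPM in A_2a, A_2b, Q_2a and Q_2b, and at 5.64 and 3.79 CPM in the embryos. All run 2 libraries were above both run 1 libraries. The junction gene cdh5 had the opposite order, with 28.7 and 34.3 CPM in A_1 and Q_1, 24.4, 25.7, 19.7 and 23.7 CPM in A_2a, A_2b, Q_2a and Q_2b, and 15.6 and 11.3 CPM in the embryos. It was the only member in which run 1 stood above run 2 without overlap.

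**Figure D1:**
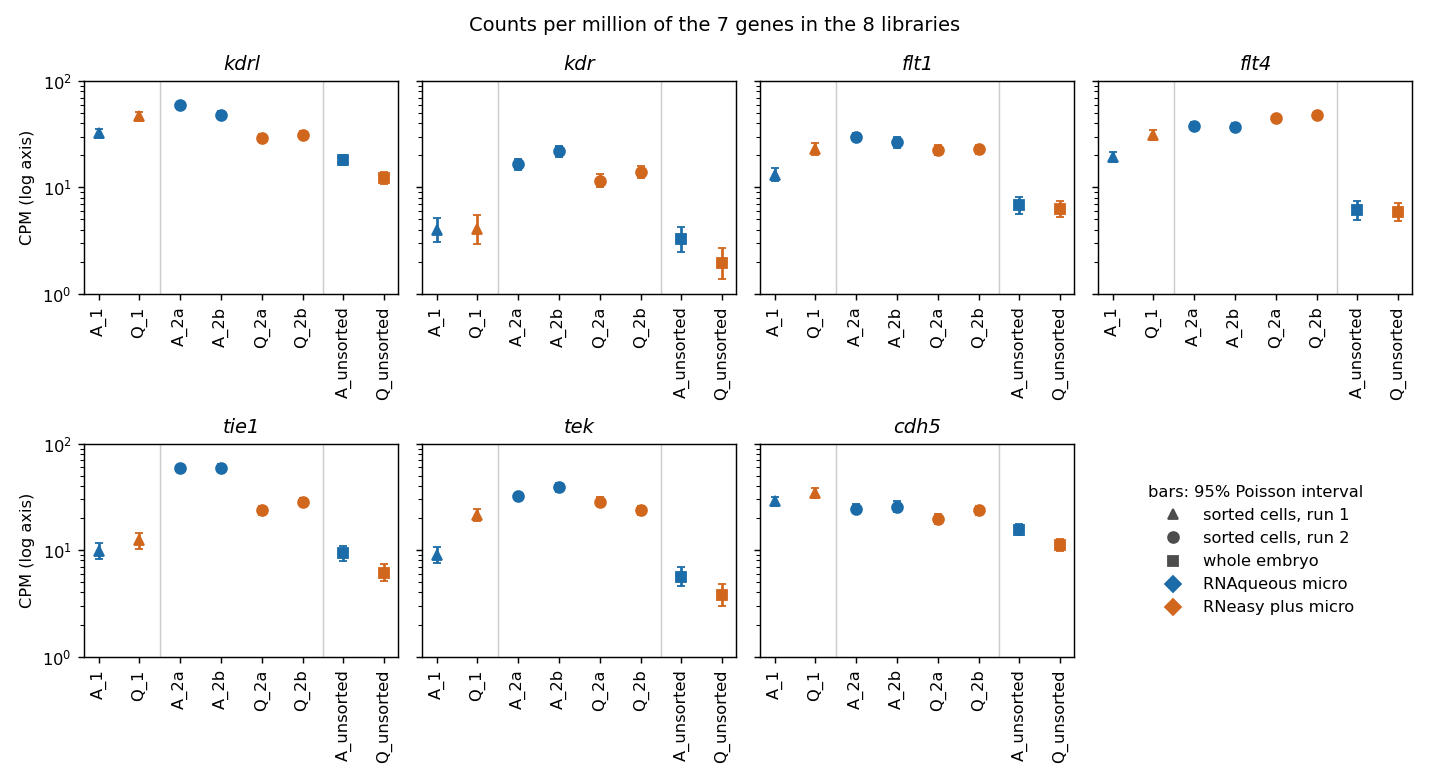
CPM of each gene (log axis) in the 8 libraries, with 95% Poisson intervals as bars, marker shape for run or whole embryo and colour for kit. Sorted libraries lie above the embryos in every panel, A_1 lies close to A_unsorted for kdr and tie1 on this scale, and cdh5 is highest in run 1.

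Portions of 1 RNA give the technical error. The ratio of portion b to portion a ranged from 0.818 (kdrl in A_2) to 1.32 (kdr in A_2) over the 14 pairs of a gene and an RNA. In 3 of the 14 pairs, kdrl, kdr and tek in A_2, the counting intervals did not overlap, so the spread between portions was larger than counting error there. The share of such pairs over all genes was not computed, so the count is no trait of these genes. In Q_2 the intervals overlapped for every gene, with ratios from 0.831 (tek) to 1.20 (cdh5). Overlap of intervals does not show that the spread was counting error alone.

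The first comparison asked how far the 7 genes differed between sorted cells of run 2 and whole embryos. All 7 were higher in sorted cells of run 2 than in the embryos, at an adjusted p under 0.05. The test was the quasi-likelihood test of edgeR, adjusted by Benjamini and Hochberg over 21377 genes, of which 23.5% were called higher and 28.2% lower. The median log2 fold change was 2.43 for the 7 genes and -0.00 for all genes tested.

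The largest fold change was that of flt4, at 2.78 on the log2 scale (SE 0.33, adjusted p = 2.16e-05). It was followed by tek at 2.66 (SE 0.34, adjusted p = 4.00e-05), kdr at 2.56 (SE 0.38, adjusted p = 0.000140) and tie1 at 2.43 (SE 0.39, adjusted p = 0.000234). These 4 fold changes lay within about 1 standard error of one another. Next came flt1 at 1.93 (SE 0.32, adjusted p = 0.000305) and kdrl at 1.45 (SE 0.34, adjusted p = 0.00308).

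VE-cadherin, cdh5, had the smallest fold change at 0.77 (SE 0.30, adjusted p = 0.0475), a difference of 2.00 on the log2 scale from flt4 that was not tested. Its call was lost in 10 of 18 alternatives, among them no filter on low counts (adjusted p = 0.0548), thinning to equal depth (adjusted p = 0.0720) and each fit that left out an RNA sample (adjusted p = 0.0714 to 0.175). The fold change of cdh5 stayed between 0.64 and 0.89 in those fits. For kdrl the call was lost without A_2, where its log2 fold change was 1.03 (adjusted p = 0.0857). The other 5 genes kept theirs without any single RNA sample.

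Taken kit by kit, the CPM of A_2 over A_unsorted was 1.60 for cdh5, 3.01 for kdrl, 4.22 for flt1, 5.65 for kdr, 6.16 for flt4, 6.17 for tek and 6.35 for tie1. The CPM of Q_2 over Q_unsorted was 1.94 for cdh5, 2.46 for kdrl, 3.60 for flt1, 4.24 for tie1, 6.60 for kdr, 6.88 for tek and 7.92 for flt4. With both kits cdh5, kdrl and flt1 had the lowest ratios in that order, and tie1 moved from the highest place with RNAqueous to the middle with RNeasy. Each ratio compares 1 RNA sample with 1 embryo and has no test of its own.

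The embryos were also compared with the sorted cells of run 1, in a fit that shares its embryo samples with the fit for run 2, so the results stand side by side and are not independent. Here 5 of the 7 genes were called higher, where 17.3% of 20254 genes were (25.5% were lower). Run 1 and the embryos were sequenced at different times. The log2 fold changes were 2.26 for flt4 (adjusted p = 0.000556), 1.88 for tek (adjusted p = 0.00480), 1.66 for flt1 (adjusted p = 0.00463), 1.59 for kdrl (adjusted p = 0.00340) and 1.45 for cdh5 (adjusted p = 0.00517). The values for kdr, 0.87 (SE 0.50, adjusted p = 0.179), and for tie1, 0.74 (SE 0.39, adjusted p = 0.142), did not pass. The fold change of cdh5 was thus 0.77 with run 2 and 1.45 with run 1, while that of tie1 was 2.43 with run 2 and 0.74 with run 1.

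**Figure D2:**
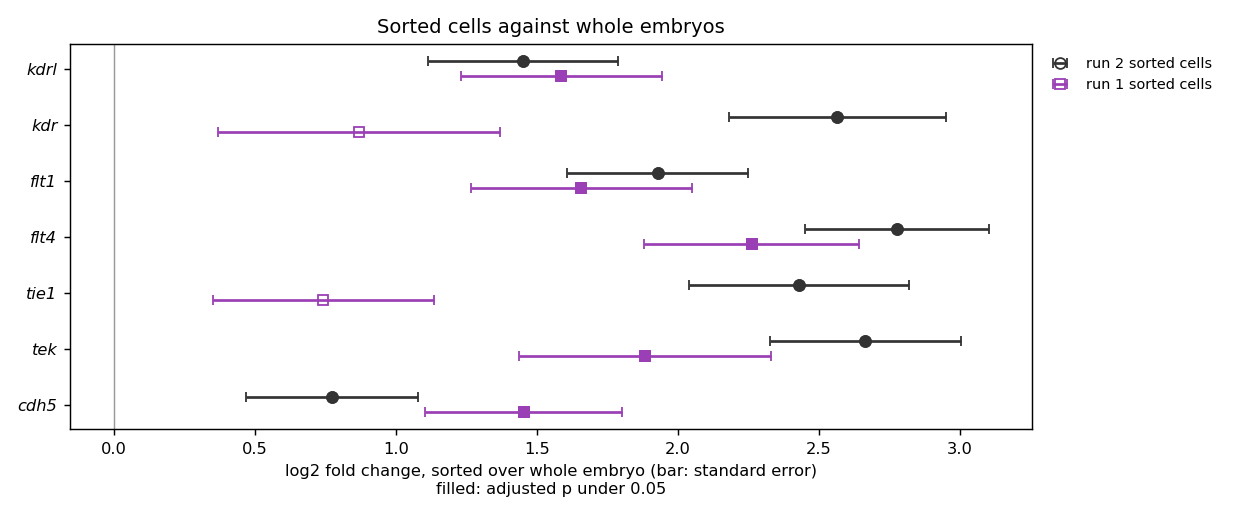
Log2 fold change of sorted cells over whole embryos for each gene, with the standard error as a bar, for run 2 (circles) and run 1 (squares), both against the same 2 embryos. Filled symbols have an adjusted p under 0.05. In run 2 all 7 are filled, and in run 1 kdr and tie1 are open.

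The second comparison asked which genes differed between runs in sorted cells, with kit as a covariate over the 4 RNA samples A_1, Q_1, A_2 and Q_2. The genes kdr and tie1 were higher in run 2, and the other 5 did not pass. Among 19639 genes tested, 4.24% were called higher in run 2 and 6.7% lower. The log2 fold change was 1.60 for kdr (SE 0.45, adjusted p = 0.00833) and 1.50 for tie1 (SE 0.45, adjusted p = 0.0151), both with edgeR.

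By CPM, both RNA samples of run 2 were above both of run 1 in 4 of the 7 genes (kdr, flt4, tie1 and tek), as in 45.4% of 18574 genes. In cdh5 both were below, as in 18.9% of genes. Total-count scaling, as used for CPM, moved the median log2 fold change between runs over all genes tested by 0.34 relative to the TMM scaling of the fit, and fold changes between runs are read against that shift.

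The CPM of tie1 in run 2 was 6.05 times that in run 1 with RNAqueous and 2.11 times with RNeasy. For kdr the ratios were 4.67 and 3.14. With TMM library sizes the ratios were smaller, at 4.28 and 1.91 for tie1 and at 3.39 and 2.85 for kdr. Each is a ratio of 1 RNA sample to another, and whether the difference between runs varies with the kit was not tested. Without A_2 neither gene was called, with log2 fold changes of 1.39 for kdr (adjusted p = 0.205) and 0.97 for tie1 (adjusted p = 0.447). DESeq2 called kdr (adjusted p = 0.0480) and not tie1 (adjusted p = 0.0509).

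A gene's share of the summed CPM of the 7 genes does not depend on how libraries are scaled. The share of tie1 was 8.45% in A_1 and 7.15% in Q_1, 22.9% and 23.1% in A_2a and A_2b, 13.1% and 14.7% in Q_2a and Q_2b, and 14.4% and 12.9% in the embryos. That of kdr was 3.44% and 2.36% in run 1, 6.36% to 8.45% in run 2, and 5.08% and 4.09% in the embryos. For cdh5 it was 24.7% and 19.8% in run 1, 9.41% to 12.4% in run 2, and 24.0% and 23.7% in the embryos. In shares, then, kdr and tie1 each had their own lowest values in run 1. For cdh5, the values of run 1 lay on either side of those of the embryos, and those of run 2 stood below every other library.

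The remaining fold changes between runs were 0.76 for tek (SE 0.44, 95% interval -0.10 to 1.63, adjusted p = 0.275), 0.43 for flt4 (SE 0.44, adjusted p = 0.584), 0.20 for flt1 (SE 0.43, adjusted p = 0.826), -0.27 for kdrl (SE 0.45, adjusted p = 0.768) and -0.77 for cdh5 (SE 0.43, 95% interval -1.62 to 0.084, adjusted p = 0.264). With Q_1 left out, tek was called (1.25, adjusted p = 0.0178). When the libraries of 1 RNA were entered separately, cdh5 was called lower in run 2 (-0.78, adjusted p = 0.0196), in a fit that counts portions of 1 RNA as replicates and calls 15.5% of 19297 genes lower. The runs differed in RNA preparation, sequencing time, amplification and volume of RNA used, which cannot be told apart. According to the paper, A_2 had the lowest RNA quality score of the sorted samples and A_1 the lowest cDNA concentration. The part of these differences was not tested. The 15 endothelial markers held no call between runs (median log2 fold change -0.12), nor did the cartilage, lymphatic, leukocyte, muscle and neuron markers tested. Of 5 mural markers, 2 were higher in run 2, PDGFRB (2.18, adjusted p = 0.000205) and NOTCH3 (1.59, adjusted p = 0.0111), and 1 was lower, a TAGLN gene (ENSDARG00000045408, -1.96, adjusted p = 0.00163). The epidermis marker krt5 (1.70, adjusted p = 0.00638) and the erythroid marker SLC4A1 (ENSDARG00000012881, 1.38, adjusted p = 0.0319) were higher, and the erythroid marker hbae3 was lower (-1.70, adjusted p = 0.0442). These 6 genes are named after their values were seen, and the part of their cell types in the differences of kdr and tie1 was not tested. Summed levels in run 1 and run 2 libraries were 237 to 261 and 262 to 281 CPM for mural, 902 to 1127 and 2013 to 2872 CPM for epidermis, and 2380 to 5514 and 1065 to 1936 CPM for erythroid markers.

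The third comparison asked whether the kits differed in sorted cells, in the same fit with run as a covariate. None of the 7 genes was called with edgeR or with DESeq2, and none had an unadjusted p under 0.05. The background was 0.117% of 19639 genes called and 3.58% at an unadjusted p under 0.05. The log2 fold changes of RNeasy over RNAqueous were -0.51 for tie1, -0.32 for kdr, -0.23 for kdrl, -0.02 for cdh5, 0.17 for flt1, 0.35 for tek and 0.44 for flt4, with standard errors between 0.43 and 0.45. The 95% intervals were wide, from -1.37 to 0.36 for tie1, from -0.87 to 0.82 for cdh5 and from -0.51 to 1.21 for tek. For every gene but cdh5, the interval reached beyond 1 on the log2 scale on the side of the estimate. Each value averages the kit difference over both runs. With TMM library sizes that difference took opposite directions in the runs for 4 of the 7 genes, as given below. The only spread left to the fit was how far the kit difference varied between runs, pooled over all genes. The missing calls therefore do not show that the kits agree.

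**Figure D3:**
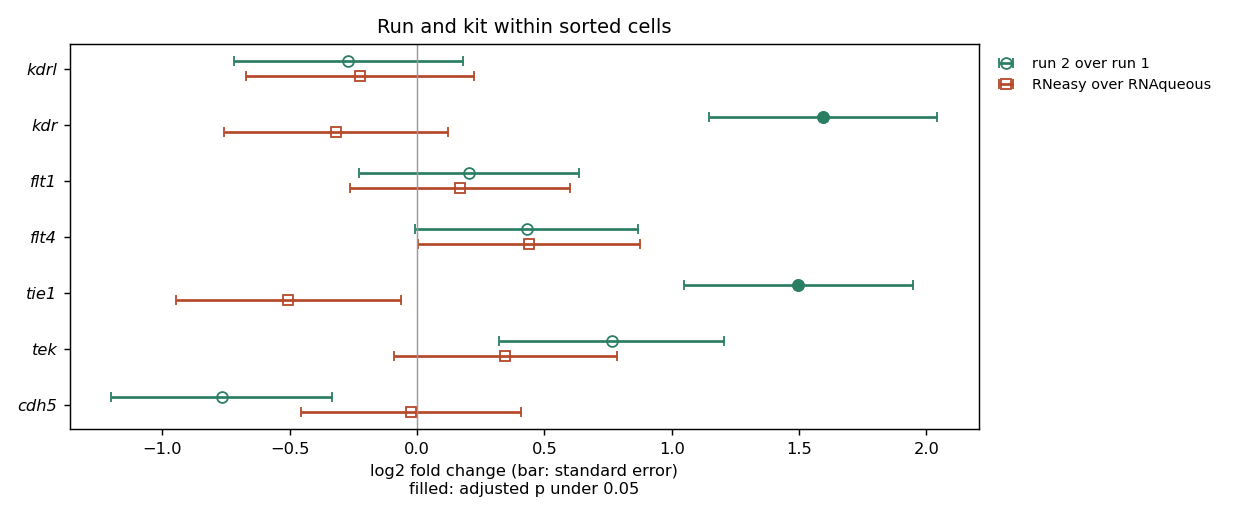
Log2 fold change between runs (circles, run 2 over run 1) and between kits (squares, RNeasy over RNAqueous) in sorted cells, with standard errors as bars and filled symbols for an adjusted p under 0.05. Only kdr and tie1 between runs are filled, and no gene is filled between kits.

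Within run 2 alone, the RNA of Q_2 was compared with that of A_2, with portions as replicates. This test compares those 2 RNA preparations and their technical error, not the kits. Of the 7 genes, 3 were called, where 28.3% of 19027 genes were. With edgeR, tie1 was lower in the RNeasy RNA (log2 fold change -1.09, adjusted p = 9.95e-06), as was kdrl (-0.73, adjusted p = 0.000329), and flt4 was higher (0.42, adjusted p = 0.00859).

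The RNeasy sample had the higher CPM in run 1 and the lower CPM in run 2 in 6 of the 7 genes. For kdr, tie1 and cdh5 the counting intervals of A_1 and Q_1 overlapped. Those of kdr were almost the same (3.04 to 5.16 and 2.97 to 5.49 CPM), so its direction in run 1 is within counting error. The ratio of RNeasy to RNAqueous went from 1.44 in run 1 to 0.550 in run 2 for kdrl, from 1.26 to 0.438 for tie1 and from 2.39 to 0.748 for tek. By contrast, flt4 was higher with RNeasy in both runs (1.61 and 1.24). A higher value with RNeasy in run 1 and a lower one in run 2, with both portions of each RNA on that side, was found in 27.3% of 18435 genes. With TMM library sizes the count for the 7 genes was 4 (kdrl, flt1, tie1 and tek) and the background 17.8%. On that scale the run 1 ratio was 0.856 for kdr, with RNeasy the lower, and 1.00 for cdh5. In the embryos the RNeasy library had the lower CPM in all 7 genes, as in 65.9% of 18574 genes, with 1 embryo for each kit. The ratio of RNeasy to RNAqueous was 0.929 for flt1 and 0.962 for flt4. TMM library sizes were 1.16 times the total in A_unsorted and 0.970 times in Q_unsorted, which raises every such ratio. The direction in flt1 and flt4 therefore depends on the scaling.

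**Figure D4:**
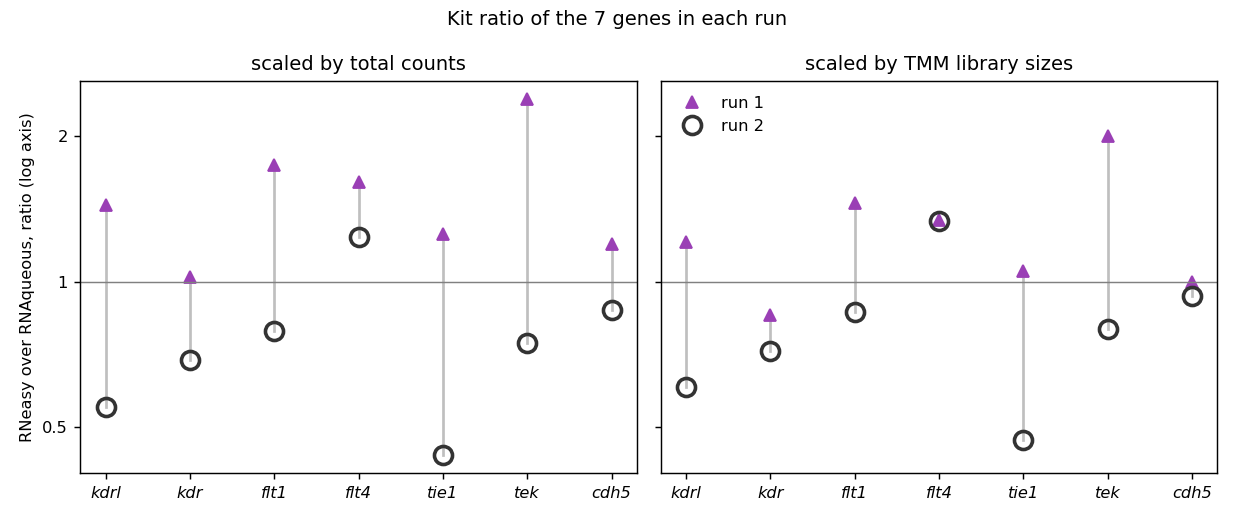
Ratio of RNeasy to RNAqueous for each gene (log axis) in run 1 (triangles) and run 2 (open circles), from values scaled by total counts (left) or TMM library sizes (right). Run 2 lies below run 1 for every gene on the left, and on the right the values of flt4 nearly coincide.

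Genes that act with these receptors were taken from lists compiled with earlier results of these data known, and are read against the 23.5% of all genes called higher and 28.2% called lower in run 2 sorted cells against embryos. Where the reference table gives 1 symbol to 2 zebrafish genes, the identifier is added.

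All 4 neuropilin genes, which encode co-receptors of VEGF, were higher: NRP1 by 1.51, nrp1b by 1.45, NRP2 (ENSDARG00000038446) by 2.38 and NRP2 (ENSDARG00000096546) by 1.99 on the log2 scale (edgeR, adjusted p = 0.00271 at most). NRP1, for example, was at 105 and 127 CPM in A_1 and Q_1, at 149 to 157 CPM in run 2 and at 69.5 and 38.1 CPM in the embryos.

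Of the VEGF ligand genes, 6 of 7 were tested, 4 were higher and 1 was lower. VEGFC, the ligand of VEGFR3, was higher by 1.93 (adjusted p = 0.000838) and VEGFD by 2.22 (adjusted p = 0.000275). One VEGFA gene (ENSDARG00000103542) was higher by 1.44 (adjusted p = 0.00292), and for the other (ENSDARG00000034700) the fold change was 0.30 (adjusted p = 0.461). PGF, placental growth factor, was higher by 2.07 (adjusted p = 0.0438) at low levels. It was at 0.676 to 1.43 CPM in run 2 and had 7 reads in A_unsorted (0.420 CPM) and 1 read in Q_unsorted (0.0512 CPM). The lower gene was vegfba, at 0.169 to 0.860 CPM in run 2 against 5.52 and 1.64 CPM in the embryos (-2.61, adjusted p = 0.00283). The remaining gene, vegfbb, had 1 read in all 8 libraries together.

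Of the 4 angiopoietin genes, ligands of tek, 3 were higher in run 2 sorted cells than in embryos. ANGPT1, the activating ligand, was at 27.6 to 54.0 CPM in run 2 and at 5.46 and 3.53 CPM in the embryos (log2 fold change 3.13, adjusted p = 2.12e-05). The fold change was 3.15 for angpt2b (adjusted p = 0.000109), 2.36 for ANGPT2 (adjusted p = 0.00683) and 1.23 for ANGPT4 (adjusted p = 0.0637, not past the threshold). Between runs, ANGPT2, a context-dependent ligand, was lower in run 2 (-1.65, adjusted p = 0.0134), with 12.3 CPM in A_1, 4.09 CPM in Q_1 and 2.58 to 3.16 CPM in the run 2 libraries. The value of A_1 was the highest by far, and the other 3 angiopoietin genes had no call between runs.

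Partners of VE-cadherin and other junction genes were mixed, with 8 of 15 higher and none lower (median log2 fold change 0.91). The catenin genes CTNNB1 (1.61, adjusted p = 0.00246), ctnnb2 (1.96, adjusted p = 0.000324) and ctnna1 (1.32, adjusted p = 0.00321), whose products link cadherins to the cytoskeleton in many cell types, were higher. So were the endothelial adhesion genes ESAM (2.28, adjusted p = 0.000229), pecam1a (1.59, adjusted p = 0.000668) and pecam1b (1.75, adjusted p = 0.00627), the VE-cadherin phosphatase gene ptprb (1.58, adjusted p = 0.000693) and TJP1 (0.91, adjusted p = 0.0378). The call was not reached by CTNND1, ptprja, tjp1b, the 2 JUP genes and the 2 CLDN5 genes, with log2 fold changes from 0.06 to 0.86.

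The beta-catenin genes also differed between runs, while ctnna1, CTNND1 and the 2 JUP genes did not pass (0.86 to 1.11). CTNNB1 was at 111 CPM in A_1 and 523 CPM in Q_1 and at 828.7 to 1025 CPM in run 2 (log2 fold change 1.63, adjusted p = 0.0446). For ctnnb2 the values were 36.1 and 204 CPM in run 1 and 385 to 508 CPM in run 2 (1.95, adjusted p = 0.0108). In both genes A_1 was far below Q_1, and both had a fold change opposite in sign to that of cdh5 (-0.77, not past the threshold).

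Of 26 genes for signalling downstream of the receptors, 24 were tested, 13 were higher, 2 were lower and 9 did not pass (median 0.92). The lower genes, named here after their values were seen, were FYN (-1.72, adjusted p = 0.000331) and PTK2B (ENSDARG00000039577, -2.10, adjusted p = 0.000490), which encode non-receptor tyrosine kinases. Their paralogs went the other way, with fynb higher by 1.61 (adjusted p = 0.00521) and the other PTK2B gene (ENSDARG00000022841) higher by 4.03 (adjusted p = 0.00116). That PTK2B gene was at 0.631 to 3.38 CPM in run 2 and had only 2 reads in each embryo (0.120 and 0.102 CPM). The size of its fold change is therefore uncertain. Both PTK2B genes entered the list, and its counts, as synonym matches for ptk2aa, which was not found under its own name. Between kits no gene of these lists was called.

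**Figure D5:**
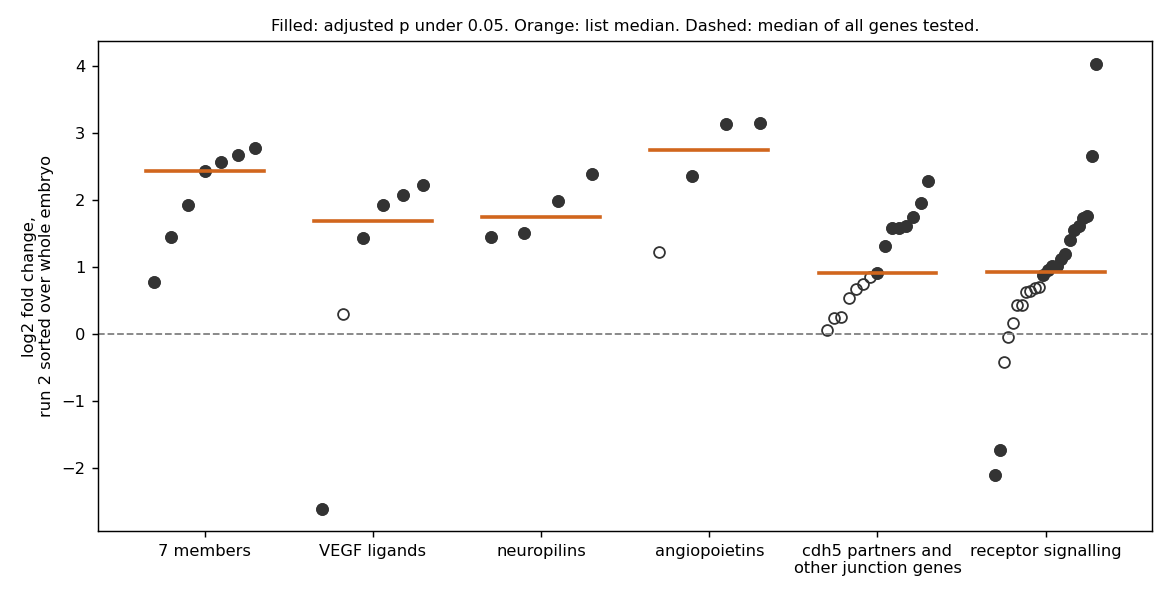
Log2 fold change of run 2 sorted cells over whole embryos for the 7 genes and for the genes of 5 lists, sorted within each list, with filled points for an adjusted p under 0.05. The orange line is the list's median, 2.43 for the 7 genes and 0.91 for the junction genes, and the dashed line is the median of all genes tested.

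The patterns of the members over the 8 libraries were compared by the root mean square difference of log2(CPM + 1) values centred on each gene's mean. The closest members were kdr and tie1 (0.252), followed by kdrl and flt1 (0.313). The farthest were tie1 and cdh5 (0.999) and kdr and cdh5 (0.940). Thus kdrl and kdr, both VEGFR2-type genes, were farther apart (0.728) than kdr and tie1 were.

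Among the 9905 named genes that averaged 10 CPM or more, the gene most like the mean pattern of the 7 members was NRP2 (ENSDARG00000096546, difference 0.0695), a co-receptor gene from the list above. It was at 51.7 and 81.8 CPM in A_1 and Q_1, at 138, 147, 101 and 97.4 CPM in A_2a, A_2b, Q_2a and Q_2b, and at 34.5 and 24.98 CPM in the embryos. The next were dvl2 (0.0807), NET1 (0.0871), lama4 (0.0927) and foxa3 (0.1001). With 0.1 in place of 1 added to the CPM, NEO1 took the place of NET1. With the strand columns, fap took the place of foxa3. NRP2 stayed nearest in both.

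For single members the nearest genes were GAL3ST4, MAML1 and CYTH3 for kdrl, SEC31A, ERC1 and PLA2R1 for kdr, and PRELP, NEDD9 and CUEDC1 for flt1. They were TCF7L1, si:dkey-19b23.8 and crispld1b for flt4, PLA2R1, ADAMTS15 and STK38 for tie1, gfra4b, PCDH18 and EMILIN2 for tek, and sinhcaflas, SLC25A43 and arhgef6 for cdh5. PLA2R1 was named for both kdr and tie1. With 8 libraries that share 6 RNA samples, likeness is a description of these libraries.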

How the data were processed

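PolyA RNA was converted to cDNA with SMART-seq V4 and made into libraries with Nextera XT. The authors aligned reads to GRCz10 with STAR and deposited raw counts per gene, leaving out reads on multiple loci, without normalization. The column that ignores strand was used, since the protocol keeps none, and the strand columns were an alternative. Gene names were matched to 27000 of 35117 identifiers, with synonyms from a RefSeq table of GRCz12tu. Genomic positions and sequences were not used here.

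CPM is the count divided by the reads counted on genes. Tests used edgeR version 4.0.16 (quasi-likelihood, TMM, filterByExpr, Benjamini-Hochberg at 0.05 over all genes tested) in R version 4.3.3, with DESeq2 version 1.42.0 as an alternative. The edgeR fits were also run on simulated counts, with fewer changed genes and less spread than in these data. That run checks the code and not the error rates here. Runs and kits have 1 RNA per combination, and the p-values of that fit are those of a normal distribution, since edgeR took the spread of single genes wholly from the trend over all genes. Its 95% intervals use the normal quantile. Alternatives were other scalings, filters, thinning, blocks, portions and samples.

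The members and lists were chosen with earlier results of these data known. Named genes were the members, genes of the ligand, co-receptor and junction lists, and the nearest genes by pattern. Some genes of the marker and signalling lists were named as well, most of them after their values were seen. The title of Q_1 gives number 2 and another field gives 1. It was taken as Q_1, the RNeasy sorted library without a portion letter.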

Additional observations from a re-analysis of the deposited data

Results flagged for a closer look

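In 6 of the 7 genes the RNeasy sample had the higher CPM in run 1 and the lower CPM in run 2, as in 27.3% of 18435 genes. The ratio of RNeasy to RNAqueous was 1.44 in run 1 and 0.550 in run 2 for kdrl, 1.02 and 0.688 for kdr, 1.74 and 0.791 for flt1, 1.26 and 0.438 for tie1, 2.39 and 0.748 for tek, and 1.20 and 0.876 for cdh5. In run 1 the counting intervals of kdr, tie1 and cdh5 overlapped between the kits. With 1 RNA sample for each kit and run, the difference between the runs was not tested. With TMM library sizes the pattern held for 4 genes, with kdr and cdh5 left out, and for 17.8% of all genes. Among the 4 sorted RNA samples, Dixon's test passed for none of the 7 genes, but with 4 samples it passes only for extreme gaps. The largest gap was that of tie1, where A_2 stood apart by 0.673 of the range, at 59.4 CPM against 26.04, 12.4 and 9.82 CPM.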

How the results depend on the processing

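Against embryos, the number of members called stayed between 5 and 7 of 7, including the scaling by total counts chosen after seeing the data (6). The call of tie1 was lost with run 1 added (adjusted p = 0.0516). The labels tie no sorted sample to an embryo beyond the kit, so the samples were not taken as paired, although the kit deviations of sorted cells and embryos were positively correlated (Spearman 0.280 over 18574 genes). With kit as a replicate block 7 were called (cdh5 adjusted p = 0.0263). The span of fold changes among members, 2.00, was 1.38 with run 1 added and 1.52 with run 1 in place of run 2. Tested against embryos were 6 VEGF ligand, 4 co-receptor, 4 angiopoietin and 15 junction genes. In the main fit 51.7% of 21377 genes were called in either direction, so the next count is no trait of these lists. That share is not given here for fits without 1 RNA sample. Of the ligand, co-receptor and junction genes 20 were called in either direction, and 11 to 22 with 1 RNA sample left out (11 without A_2). Between runs, 2 members were called, 1 with DESeq2, 0 to 3 with 1 RNA left out (0 without A_2) and 2 with no replicate block for kit. Between kits, 0 were called, 3 within run 2 alone and 4 with the letter as a replicate block (kdr adjusted p = 0.0424), with 0 in each fit without 1 RNA.

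Directions that turned were all of uncalled values. Between runs, kdrl was 0.072 with total counts, and without 1 RNA kdrl ranged from -0.63 to 0.089 and flt1 from -0.065 to 0.46. Between kits, cdh5 was 0.028 when thinned, 0.010 with portion b and 0.032 with total counts, and within run 2 flt1 was -0.21 and tek -0.32, also with the block. Without 1 RNA the kit values ranged from -0.13 to 0.48 for flt1, -0.36 to 1.08 for tek, -0.50 to 0.38 for cdh5, -1.30 to 0.75 for kdr, -1.45 to 0.64 for tie1 and -0.64 to 0.16 for kdrl. The causes were not tested. Fits that left out 1 RNA for runs or kits had no covariate, and the lone sample is assumed to vary like the others. Depth limits kdr most, with 38 to 59 reads in each of 4 libraries.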
